A study of Mus musculus with 8 samples.

Results

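The genes described here are 9 genes of intrinsic apoptosis, out of 39056 genes counted in mouse hearts: Diablo, Xiap, Casp9, Bax, Bak1, Bid, Bcl2, Bcl2l1 and Mcl1. All 9 were found by Ensembl identifier and passed the filter on low counts. Diablo was chosen by its lower transcript level in hearts without the voltage-gated proton channel HVCN1, in the same comparison, so its difference between the genotypes is given as a description with no test. The other 8 were listed for their place in the same pathway.

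RNA-seq was performed on the hearts of 4 HVCN1 null mice (Hv1 null, a knockout of the channel gene) and 4 wild-type (WT) mice, all male and 3 months old. The study's methods give a C57BL/6 background. Each library is labelled as heart, with no part of the heart named, and nothing in the labels limits the knockout to 1 cell type. The hearts are numbered 1 to 4 (HVCN1 null) and 5 to 8 (WT).

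In intrinsic apoptosis, stress signals are passed to mitochondria by BH3-only proteins such as BID, which activate the effectors BAX and BAK. These open the outer membrane unless the pro-survival proteins BCL2, BCL-XL (Bcl2l1) and MCL1 hold them back. Cytochrome c then leaves the mitochondrion and assembles, with APAF1, the platform that activates caspase 9. SMAC, the product of Diablo, leaves with it and relieves caspases from XIAP, an inhibitor of apoptosis protein. In the heart this route is known from the loss of cardiomyocytes after ischaemia and reperfusion, and MCL1 is known to be needed by adult cardiomyocytes.

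The stretch before the start of transcription is shown for Diablo, the gene picked for its lower level, and for Mcl1, whose hearts were apart in the other direction. Both run from 250 to 51 bases before the RefSeq start on GRCm38.p6, at chr5:123524215-123524414 on the minus strand for Diablo and chr3:95658471-95658670 on the plus strand for Mcl1. Capitals mark matches to GGGCGG (GC box) and CCAAT on either strand.
Diablo: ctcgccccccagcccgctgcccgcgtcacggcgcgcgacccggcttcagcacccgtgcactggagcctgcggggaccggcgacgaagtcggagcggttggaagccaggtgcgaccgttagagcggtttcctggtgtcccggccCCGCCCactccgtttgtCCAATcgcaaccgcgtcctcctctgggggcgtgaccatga
Mcl1: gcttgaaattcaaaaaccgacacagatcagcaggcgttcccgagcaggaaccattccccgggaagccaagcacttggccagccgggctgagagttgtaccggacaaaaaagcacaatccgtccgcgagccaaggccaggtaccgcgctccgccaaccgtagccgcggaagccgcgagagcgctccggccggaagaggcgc
The Diablo stretch held 1 GC box and 1 CCAAT and the Mcl1 stretch neither, while 24.6% and 28.4% of all 32851 stretches of this length in the RefSeq table held these letters. Neither held TATAAA (in 9.14% of stretches) or CACGTG (in 4.34%). Bases G and C made up 71% of the Diablo stretch, with 26 CG pairs, and 63% of the Mcl1 stretch, with 21.

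Sequencing depth lay between 25851255 and 38874640 counts per heart. The sum of Hvcn1 counts was 16 in the HVCN1 null group and 318 in the WT group. Levels are given as CPM, counts scaled to a common library size of 1000000 by the TMM method. A gene was taken as differentially expressed (a DEG) where its Benjamini-Hochberg adjusted p, from the quasi-likelihood test of edgeR, was under 0.05 over 14796 tested genes, of which 1.14% were DEGs, 0.743% higher and 0.399% lower in HVCN1 null hearts. All 6 cardiomyocyte markers were detected in every group, with a summed 45635 to 57637 CPM in HVCN1 null and 48457 to 57163 CPM in WT hearts. Of these, 4 had lower means in HVCN1 null hearts. For Actc1, at 6357 ± 279 against 9032 ± 1260 CPM, the groups did not overlap (edgeR quasi-likelihood adjusted p = 0.105). Such a gap in the lower direction held for 3.45% of all tested genes. For each of 10 marker lists the summed CPM overlapped between the groups. One marker was a DEG, Acta2 of the smooth muscle list, at 261 ± 101 CPM in HVCN1 null and 105 ± 18.9 CPM in WT hearts (edgeR quasi-likelihood adjusted p = 0.0466). All 6 macrophage markers (summed, 172 to 229 CPM against 195 to 279 CPM) and all 4 neutrophil markers (2.70 to 13.4 CPM against 5.08 to 19.1 CPM) had lower means in HVCN1 null hearts, and none of these was a DEG. The part of these markers in the levels below was not tested. The sum of the 6 atrial markers split the hearts otherwise. Hearts 1, 4, 6 and 8 had 85.0 to 317 CPM, and hearts 2, 3, 5 and 7 had 3261 to 8368 CPM. Of these markers, Bmp10 did not follow this split: it was high in hearts 2 (418 CPM) and 7 (574 CPM) alone. In hearts 3 and 5 it had 0.0380 and 0.152 CPM, below heart 4 at 3.08 CPM. The 8 erythroid markers had lower means in HVCN1 null hearts for all 8 genes (summed, 1296 to 8427 CPM against 3037 to 15295 CPM). In bulk tissue, fewer cells of a type and less RNA per cell cannot be told apart.

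Diablo (ENSMUSG00000029433, chromosome 5, 123509765 to 123524176 in GRCm38, minus strand) had 34.8, 35.7, 37.4 and 35.0 CPM in HVCN1 null hearts 1 to 4. In WT hearts 5 to 8 it had 54.2, 52.4, 42.6 and 50.6 CPM. Every HVCN1 null heart lay below every WT heart, and WT heart 7 was the nearest to them. The means were 35.7 ± 1.20 and 49.9 ± 5.09 CPM (SD, n = 4 each). The mean was changed by -28.5%, and the log2 fold change was -0.48 (standard error 0.09). With each heart left out in turn the log2 fold change lay between -0.55 and -0.43. The null hearts were close to one another: their coefficient of variation was 3.35%, while the median over all tested genes was 13.9% in these hearts. In WT hearts it was 10.2%, with a median of 13.1% over all tested genes. Picking a gene by a difference between the groups can favour a small spread, so these values are a description only. Among hearts with a low atrial sum, Diablo was at 34.8 and 35.0 CPM in HVCN1 null hearts 1 and 4. It was at 52.4 and 50.6 CPM in WT hearts 6 and 8. Among hearts with a high atrial sum these were 35.7 and 37.4 CPM in hearts 2 and 3, and 54.2 and 42.6 CPM in hearts 5 and 7. With the atrial or the erythroid markers as a covariate the log2 fold change was -0.47 or -0.45. All of these fits reuse the values for which Diablo was picked, so they are a description as well. The part of atrial or erythroid RNA in the level of Diablo was not tested.

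**Figure D1:**
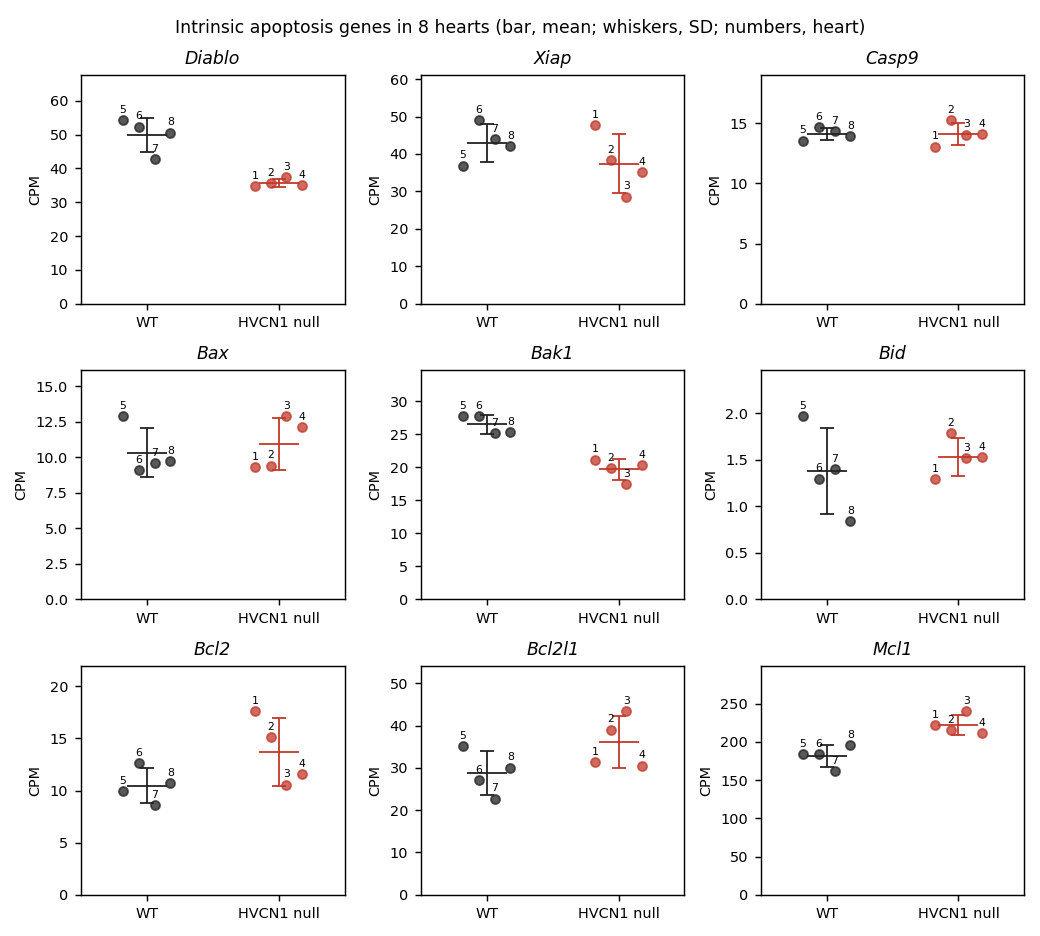
CPM of the 9 genes in each heart, with an axis from 0 for each gene, the heart's number above its point, and the group mean and SD as bar and whiskers. Diablo and Bak1 were lower in all 4 HVCN1 null hearts than in any WT heart (black) and Mcl1 was higher in all 4, while the groups overlapped for the other 6 genes.

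On the annotation, 1326 exon bases of Diablo (21.5% of its exons) are shared with B3gnt4 on the opposite strand. B3gnt4 had 16 counts over all 8 hearts, while Diablo had 11662. Gm49027 shares 1193 exon bases with Diablo on the same strand (19.3% of the exons of Diablo). It has no row among the counts, so its level was not analysed here. Reads were counted per gene, so the forms of Diablo that arise by splicing are not separated.

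Xiap (ENSMUSG00000025860, chromosome X, 42059679 to 42109656, plus strand) encodes the caspase inhibitor that SMAC binds. It had 47.7, 38.4, 28.6 and 35.1 CPM in HVCN1 null hearts 1 to 4, and 36.9, 49.0, 44.0 and 42.0 CPM in WT hearts 5 to 8. The groups overlapped, and HVCN1 null heart 3 was the lowest of all. The means were 37.4 ± 7.94 and 43.0 ± 5.01 CPM (SD, n = 4 each). The log2 fold change was -0.20 (95% interval -0.53 to 0.13, edgeR quasi-likelihood adjusted p = 0.753), so the interval includes both no difference and a decrease down to -0.53. With the erythroid markers as a covariate it was -0.40 (edgeR quasi-likelihood adjusted p = 0.298). The ratio of Diablo to Xiap, both per kilobase of exon, was 1.52 ± 0.368 in HVCN1 null and 1.81 ± 0.333 in WT hearts. Its ranges overlapped (1.12 to 2.01 and 1.49 to 2.26).

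Casp9 (ENSMUSG00000028914, chromosome 4, 141793612 to 141815976, plus strand) encodes the initiator caspase of the pathway. It varied least of the 9 genes, with 13.1, 15.2, 14.1 and 14.1 CPM in HVCN1 null hearts 1 to 4, and 13.6, 14.7, 14.3 and 13.9 CPM in WT hearts 5 to 8. The highest heart was 1.17 times the lowest. The group means were both 14.1 CPM, with SDs of 0.894 and 0.495 (n = 4 each). The 95% interval of its log2 fold change ran from -0.19 to 0.19 (edgeR quasi-likelihood adjusted p = 0.999).

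Among the effectors, Bak1 was lower and Bax was not called. Bak1 (ENSMUSG00000057789, chromosome 17, 27019810 to 27029009, minus strand) encodes BAK, which sits in the outer mitochondrial membrane. It had 21.2, 19.8, 17.4 and 20.4 CPM in HVCN1 null hearts 1 to 4, and 27.8, 27.8, 25.3 and 25.4 CPM in WT hearts 5 to 8. All 4 HVCN1 null hearts lay below all WT hearts, which held for 3.45% of all tested genes in this direction. Bak1 fell from 26.6 ± 1.44 to 19.7 ± 1.61 CPM (SD, n = 4 each). Its log2 fold change was -0.43 (95% interval -0.62 to -0.24, edgeR quasi-likelihood adjusted p = 0.0465). The call was close to the threshold. It was lost without any 1 of the 8 hearts (edgeR quasi-likelihood adjusted p from 0.0667 to 0.173) and kept in 5 of 18 alternatives, while the log2 fold change stayed between -0.46 and -0.38. Bak1 shares 437 exon bases (18.2% of its exons) with Ggnbp1 on the opposite strand. Ggnbp1 had 9308 counts over all 8 hearts and Bak1 2628 (HVCN1 null) and 3704 (WT), so the count of Bak1 is uncertain to the extent that reads in the shared bases were assigned to one or the other gene. Ggnbp1 had 38.5 ± 8.88 CPM in HVCN1 null and 31.1 ± 4.61 CPM in WT hearts (edgeR quasi-likelihood adjusted p = 0.553).

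Bax (ENSMUSG00000003873, chromosome 7, 45461697 to 45466898, minus strand), the cytosolic effector that moves to the membrane on activation, had 9.34, 9.42, 12.9 and 12.2 CPM in HVCN1 null hearts 1 to 4. In WT hearts 5 to 8 it had 12.9, 9.12, 9.57 and 9.72 CPM. Hearts 3, 4 and 5 were high and the other 5 hearts close together, across both genotypes. The log2 fold change was 0.08 (95% interval -0.25 to 0.42, edgeR quasi-likelihood adjusted p = 0.929). With the erythroid markers as a covariate it was 0.34 (edgeR quasi-likelihood adjusted p = 0.322). The erythroid sum was highest in hearts 4 (8427 CPM) and 5 (15295 CPM), and in heart 3 it was 3226 CPM. The part of erythroid RNA in the level of Bax was not tested. The difference between the changes of Bak1 and Bax was not tested.

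Bid (ENSMUSG00000004446, chromosome 6, 120891930 to 120916853, minus strand) encodes the BH3-only protein that carries a signal from caspase 8 to mitochondria. It was the scarcest of the 9 genes, with sums of 204 counts (HVCN1 null) and 198 counts (WT). HVCN1 null hearts 1 to 4 had 1.29, 1.79, 1.52 and 1.53 CPM, and WT hearts 5 to 8 had 1.97, 1.30, 1.40 and 0.844 CPM. The WT hearts enclosed all HVCN1 null hearts. The log2 fold change was 0.14 (95% interval -0.44 to 0.73, edgeR quasi-likelihood adjusted p = 0.928), the widest interval of the 9 genes. Bid shares 628 exon bases (17.7% of its exons) with Bcl2l13 on the opposite strand, which had 21768 counts, so the count of Bid is uncertain.

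The 3 pro-survival genes had higher means in HVCN1 null hearts, and none was a DEG. Mcl1 (ENSMUSG00000038612, chromosome 3, 95658788 to 95663176, plus strand) had 222, 215, 240 and 212 CPM in HVCN1 null hearts 1 to 4, and 184, 184, 161 and 196 CPM in WT hearts 5 to 8. Every HVCN1 null heart lay above every WT heart, with means of 222 ± 12.5 and 181 ± 14.3 CPM (SD, n = 4 each). Hearts of the 2 genotypes did not overlap for 7.06% of all tested genes in either direction, and for 3.45% in the lower direction. The log2 fold change was 0.29 (95% interval 0.09 to 0.50), and with edgeR's quasi-likelihood adjusted p of 0.235 it did not pass the test. Over 18 alternatives the log2 fold change stayed between 0.25 and 0.34, and only DESeq2 called it (DESeq2 adjusted p = 0.0161). The other adjusted p values reached 0.496.

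Bcl2 (ENSMUSG00000057329, chromosome 1, 106538178 to 106714274, minus strand) had 17.6, 15.1, 10.6 and 11.6 CPM in HVCN1 null hearts 1 to 4, and 9.97, 12.7, 8.57 and 10.7 CPM in WT hearts 5 to 8. HVCN1 null hearts 1 and 2 were the highest of all, and hearts 3 and 4 lay among the WT hearts. The log2 fold change was 0.39 (95% interval -0.0009 to 0.78, edgeR quasi-likelihood adjusted p = 0.458). Hearts 1 and 2 also had the lowest erythroid sums (1303 and 1296 CPM), and with these markers as a covariate the log2 fold change of Bcl2 was 0.14 (edgeR quasi-likelihood adjusted p = 0.760). Lymphocytes, in which BCL2 is abundant, were followed by B cell markers with a summed 1.82 to 15.8 CPM in HVCN1 null and 3.62 to 11.5 CPM in WT hearts. The T cell markers had 1.47 to 4.24 CPM and 0.773 to 2.88 CPM. The part of lymphocyte or erythroid RNA in the levels of Bcl2 was not tested.

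Bcl2l1 (ENSMUSG00000007659, chromosome 2, 152780668 to 152831728, minus strand) encodes BCL-XL and, by another splice form, the pro-apoptotic BCL-XS, which gene counts do not separate. It had 31.4, 39.1, 43.4 and 30.5 CPM in HVCN1 null hearts 1 to 4, and 35.1, 27.2, 22.7 and 30.1 CPM in WT hearts 5 to 8. The groups overlapped through WT heart 5. The log2 fold change was 0.33 (95% interval -0.0087 to 0.66, edgeR quasi-likelihood adjusted p = 0.473). Heart 7 was the lowest heart for all 3 pro-survival genes.

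**Figure D2:**
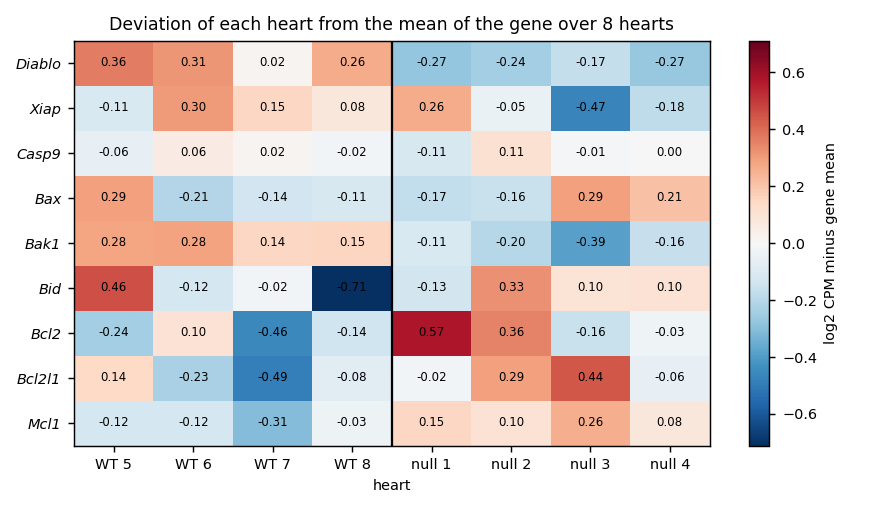
Deviation of each heart from the mean of the gene over the 8 hearts, in log2 CPM (prior count 2), with red above and blue below the mean and WT hearts left of the line. The rows of Diablo and Bak1 change sign at the line, Mcl1 changes in the other direction, and Bid in WT heart 8 (-0.71) is the lowest value.

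Ratios of effector to pro-survival transcripts were computed per kilobase of exon. For Bax to Bcl2, HVCN1 null hearts 1 to 4 had ratios of 3.08, 3.62, 7.11 and 6.11, and WT hearts 5 to 8 had ratios of 7.51, 4.18, 6.49 and 5.28. The groups overlapped, and within the HVCN1 null group hearts 1 and 2 were apart from hearts 3 and 4. For Bak1 to Mcl1 it was 0.135, 0.131, 0.103 and 0.137 in HVCN1 null hearts, and 0.214, 0.215, 0.222 and 0.184 in WT hearts. These groups did not overlap, with means of 0.127 ± 0.0158 and 0.209 ± 0.0170 (SD, n = 4 each). Bak1 was lower and Mcl1 higher in all 4 HVCN1 null hearts than in any WT heart, so their ratio could not overlap between the groups. The pair was chosen after its values were seen, and no test was made.

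Levels of different genes were compared as CPM per kilobase of exon. By this measure Mcl1 was the highest of the 9 genes in WT hearts at 53.0 ± 4.19 (SD, n = 4). Bak1 followed at 11.0 ± 0.598, Diablo at 8.10 ± 0.826, Bax at 6.55 ± 1.09 and Bcl2l1 at 6.28 ± 1.13. Neighbours from Diablo to Xiap overlapped by value in WT hearts, so their order is not set by these data. Xiap was at 4.54 ± 0.529, Casp9 at 2.72 ± 0.0953, Bcl2 at 1.14 ± 0.187 and Bid at 0.389 ± 0.131, and these did not overlap with one another. In HVCN1 null hearts Diablo, at 5.79 ± 0.194, came after Bcl2l1 (7.87 ± 1.35) and Bax (6.95 ± 1.17), and its range overlapped with that of Bax. When the longest transcript was used as the length, Diablo was the second gene in WT hearts at 14.7 ± 1.50, and Bak1 the fourth at 11.1 ± 0.603, with ranges of neighbours from Diablo to Bax that overlapped.

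**Figure D3:**
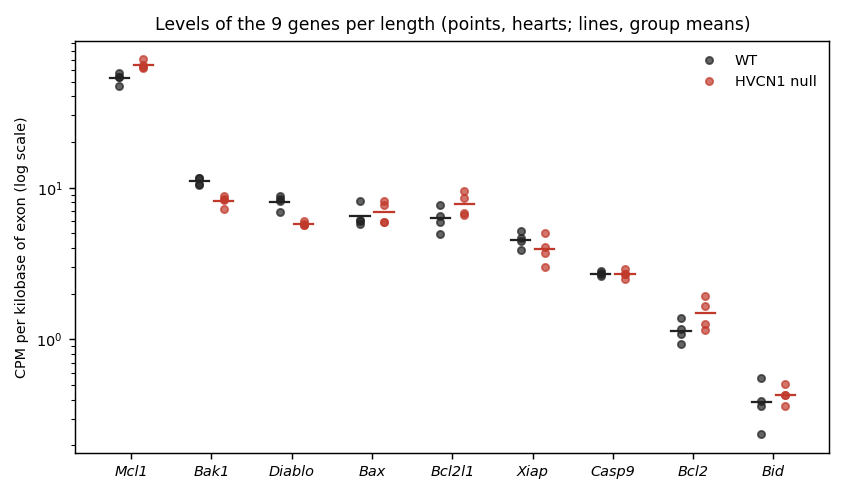
CPM per kilobase of exon, on a log scale, for the 9 genes in order of their WT mean, with 1 point per heart and a line at each group mean. Mcl1 stood above all others at 53.0 in WT hearts and Bid was lowest at 0.389, while Diablo, Bax and Bcl2l1 overlapped in WT hearts.

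The pathway around these genes was followed by 46 genes in 7 lists, of which 41 were tested. Diablo, which was chosen by this comparison, is left out of the counts of DEGs. Of the 8 other members 1 was a DEG, Bak1, where 1.14% of all tested genes were, and it was not called with the erythroid markers as a covariate or with any 1 heart left out. The median log2 fold change of the 41 genes was -0.0045 and that of all tested genes -0.011. Outside the 9 members, none of 32 genes was a DEG by edgeR's quasi-likelihood test, and 2 had an unadjusted p under 0.05, where 11.0% of all tested genes did. The exact and likelihood ratio tests, DESeq2 and limma's voom called none of the 32 either, with 3 to 5 genes at an unadjusted p under 0.05.

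These 2 genes were Bmf and Bik, which encode BH3-only proteins. Bmf had 3.54, 5.06, 4.26 and 5.002 CPM in HVCN1 null hearts 1 to 4 and 8.22, 4.73, 7.83 and 4.997 CPM in WT hearts 5 to 8 (log2 fold change -0.53, edgeR quasi-likelihood adjusted p = 0.371). It was highest in WT hearts 5 and 7, which had the larger atrial sums of the WT group. With the atrial markers as a covariate its log2 fold change was -0.62 (edgeR quasi-likelihood adjusted p = 0.0876). The part of atrial RNA in the level of Bmf was not tested. Bik had 4.56 ± 0.930 and 6.54 ± 1.28 CPM (SD, n = 4 each), and its log2 fold change was -0.53 (edgeR quasi-likelihood adjusted p = 0.282). Of the 10 BH3-only genes tested, 5 had a log2 fold change below 0 and 5 above.

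Bnip3 and Bnip3l, known for the removal of mitochondria as well as for cell death, had log2 fold changes of -0.27 and -0.37 (edgeR quasi-likelihood adjusted p = 0.474 and 0.466). Bnip3l, which is active in maturing red cells, was highest in hearts 4 (71.8 CPM) and 5 (93.6 CPM) of their groups, the hearts with the highest erythroid sums. With the erythroid markers as a covariate its log2 fold change was -0.061. The part of erythroid RNA in the level of Bnip3l was not tested. Pmaip1 (NOXA, which binds MCL1) had group means of 0.253 ± 0.144 (HVCN1 null) and 0.393 ± 0.124 CPM (WT; SD, n = 4 each). Its log2 fold change was -0.63 (95% interval -1.59 to 0.34, edgeR quasi-likelihood adjusted p = 0.713). Bbc3, which encodes PUMA, had a log2 fold change of 0.26 (edgeR quasi-likelihood adjusted p = 0.681).

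The 7 genes of the apoptosome and the caspases had log2 fold changes from -0.087 to 0.11 and no DEG. Of the 8 tested genes of the inhibitor of apoptosis family 6 were below 0 and 2 above, from Naip5 at -0.33 (edgeR quasi-likelihood adjusted p = 0.650) to Birc5 at 0.46 (edgeR quasi-likelihood adjusted p = 0.684). Of the other genes for proteins of the space between the mitochondrial membranes, Htra2, whose product also binds XIAP, had a log2 fold change of 0.06 (95% interval -0.18 to 0.30). For Aifm1 it was 0.04 (95% interval -0.17 to 0.24). The difference between the changes of these genes and Diablo was not tested. Xaf1, which encodes a partner of XIAP, had 19.9, 18.7, 9.01 and 8.17 CPM in HVCN1 null hearts 1 to 4 and 9.20 to 9.74 CPM in WT hearts. Its level was high in hearts 1 and 2 alone, and its log2 fold change was 0.54 (edgeR quasi-likelihood adjusted p = 0.515). Bok, the third effector, had a log2 fold change of 0.14 (edgeR quasi-likelihood adjusted p = 0.869).

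**Figure D4:**
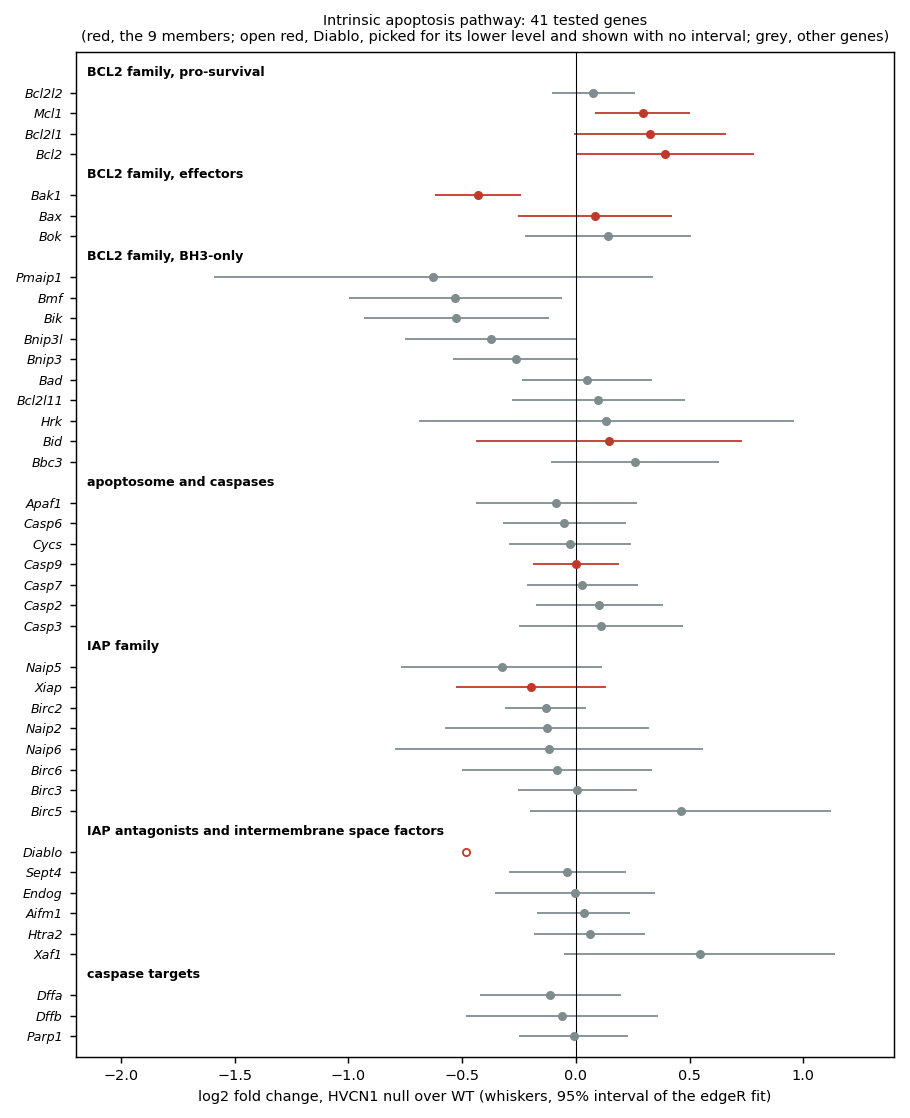
Log2 fold change, HVCN1 null over WT, for the 41 tested genes of the pathway by list, with 95% intervals of the edgeR fit, the 9 members in red and the others in grey. Diablo (open, with no interval) and Bak1 lay at -0.48 and -0.43, and the apoptosome and caspase genes lay between -0.087 and 0.11.

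Diablo lies 1.27 Mb from Hvcn1 on chromosome 5, the gene deleted in these mice. Of 22 other tested genes within 0.5 Mb of Diablo none was a DEG by edgeR's quasi-likelihood test, 5 had an unadjusted p under 0.05 (11.0% of all tested genes did), and DESeq2 called 1 of them, Hip1r. Their median log2 fold change was 0.04, and 7 of 22 were below 0. The groups did not overlap for 5 of them, Tmem120b, Rhof, Wdr66, Kntc1 and Hip1r, and only Kntc1 of these 5 was lower. Over all tested genes the groups did not overlap for 7.06%, and for 3.45% in the lower direction. The nearest neighbour upstream, Vps33a, had 34.2 ± 3.43 CPM in HVCN1 null and 29.7 ± 3.24 CPM in WT hearts (log2 fold change 0.21, edgeR quasi-likelihood adjusted p = 0.532). Around the other 8 members, DEGs within 5 Mb numbered from 0 of 102 tested genes for Bid to 7 of 123 for Bax, with 3 of 183 for Bak1 and 4 of 101 for Mcl1. Around Diablo there were 4 of 107, Hvcn1 included, and over all tested genes the share was 1.14%.

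**Figure D5:**
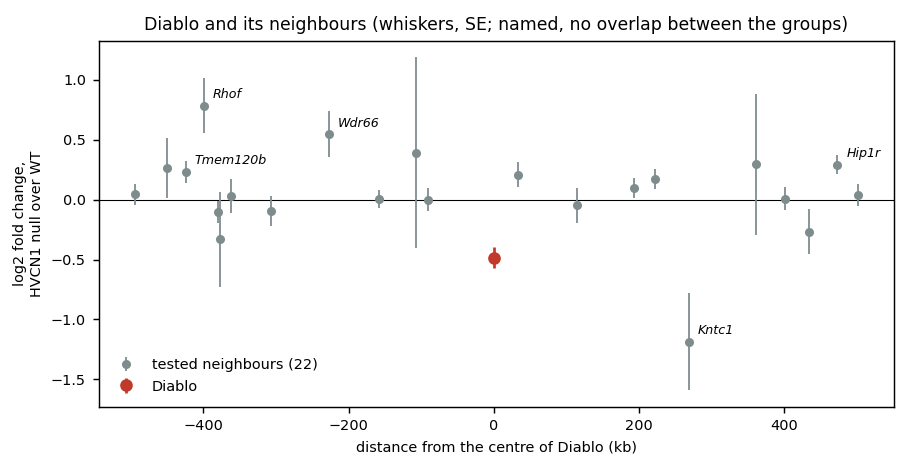
Log2 fold change, HVCN1 null over WT, of Diablo (red) and the 22 tested genes around it (grey) against the distance from the centre of Diablo in kb, with standard errors as whiskers. Diablo, at -0.48, lay among genes with a median of 0.04, and the 5 named genes are those whose groups did not overlap.

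The 5 genes whose pattern over the 8 hearts was most like that of Diablo were Chid1, Lancl1, Pkdcc, Ackr3 and Cd200. Likeness was the root mean square difference of log2 CPM, each gene centred on its own mean, and ran from 0.0893 for Chid1 to 0.0997 for Cd200, while the deviations of Diablo from its own mean had a root mean square of 0.258. None of the 5 lies within 5 Mb of Diablo. Chid1 had group means of 16.9 ± 1.72 (HVCN1 null) and 22.5 ± 2.14 CPM (WT; SD, n = 4 each), and Ackr3 had 66.8 ± 2.55 and 87.9 ± 10.6 CPM. Of the other members Bak1 was the nearest to Diablo, at 0.124, followed by Casp9 at 0.267, and Bcl2 was the farthest at 0.491. The pattern of Diablo is mainly the difference between the genotypes for which it was picked, so genes with a similar fall are near it by construction. How many of all tested genes lie as near was not examined.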

How the data were processed

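RNA from 4 HVCN1 null and 4 WT hearts was analysed, each as a single library. Poly-A RNA was read by the authors as pairs of 50 nt, mapped with STAR and assigned to Ensembl genes with featureCounts; the strand setting is not given in the sources used here. The deposited values are these raw counts, without normalization. The processing notes name mm10 and GRCm38, while the methods text names a human build. Identifiers were matched to GENCODE M21 on GRCm38 (38872 of 39056).

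CPM values, log2 CPM (prior count 2) and tests came from edgeR 4.0.16 (R 4.3.3), with filterByExpr defaults (14796 genes), TMM scaling of the library sizes of these genes, and the quasi-likelihood test with Benjamini-Hochberg adjustment at 0.05. Standard errors are the log2 fold change divided by the root of the F statistic. CPM per kilobase used the union of annotated exons. The fit was tested on simulated data with known changes. Alternatives were RLE or no scaling, 2 other filters, DESeq2 1.42.0, voom of limma 3.58.1, the exact and the likelihood ratio test of edgeR, atrial or erythroid markers as a covariate, and each heart left out in turn. With 4 hearts per group the p-values set each difference against the spread between these hearts.

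The members and lists were chosen with earlier results of these data known. Genes named are the 9 members, DEGs of the pathway lists and the 10 other pathway genes of largest change, the 5 genes most like Diablo, overlapping genes and DEGs within 0.5 Mb of Diablo. Other genes named (Htra2, Aifm1, Acta2, Actc1, Bmp10, Casp8, Tnfrsf10b, Vps33a and neighbours whose groups did not overlap) were chosen after their values were seen.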

Additional observations from a re-analysis of the deposited data

Results flagged for a closer look

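Among the 9 members and the 10 other pathway genes of largest change, 38 groups of 4 hearts were examined for 1 heart far from the other 3, and 5 such hearts were found, where chance gives about 1 in 20. Bax was at 12.9 CPM in WT heart 5, and at 9.12 to 9.72 CPM in the other WT hearts. Bnip3l was at 93.6 CPM in WT heart 5, against 62.4 to 64.3 CPM in the others, and at 71.8 CPM in HVCN1 null heart 4, against 46.7 to 50.6 CPM. Bnip3 was at 86.5 CPM in WT heart 7, against 124 to 127 CPM in the other WT hearts. Xaf1 was at 9.20 CPM in WT heart 7, a small gap from the 9.69 to 9.74 CPM of the others.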

How the results depend on the processing

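All 18 alternatives used the same counts, from which Diablo was picked for its direction. The log2 fold changes of Xiap, Bcl2 and Bcl2l1 kept their sign under all of them. So did those of Diablo, Bak1 and Mcl1. Their groups did not overlap, so leaving out 1 heart could hardly reverse the sign of a log2 fold change. That of Casp9, close to 0, was 0.011 with RLE scaling, 0.036 without scaling, 0.0059 without a filter, 0.012 with DESeq2, and -0.040 to 0.035 with 1 heart left out. With 1 heart left out Bax lay between -0.0043 (without HVCN1 null heart 3) and 0.22, and Bid between -0.020 (without WT heart 8) and 0.38. Xaf1 was at -0.031 with the erythroid markers as a covariate. Over all genes the number of DEGs was 367 with edgeR's exact test, 376 with the likelihood ratio test, 466 with DESeq2 and 87 with the erythroid covariate, and 71 to 152 with 1 heart left out. With Diablo left out, the pathway genes called were Bak1 and Mcl1 with DESeq2. None was called without scaling, without a filter, with voom, with either covariate or with 1 heart left out. Of all genes tested, 150 of 14796 were called without scaling, 147 of 14796 with voom and 212 of 14796 with the atrial covariate. Without a filter 219 of 23624 were called. The cause of these shifts was not tested. The labels name no pairs of HVCN1 null and WT hearts and no batch, so no paired analysis was possible. Depth limits the genes with few counts, among them Pmaip1, Birc5 and Bid.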

Other observations

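The death receptor pathway, which reaches mitochondria through caspase 8 and BID, was followed by 8 genes, of which 7 were tested. Of these 5 had a log2 fold change above 0 and 2 below. None was a DEG by edgeR's quasi-likelihood test, its exact or likelihood ratio test, DESeq2 or voom. By the quasi-likelihood test 11.0% of all tested genes had an unadjusted p under 0.05, and in each of these tests 1 of the 7 did. That gene, Tnfrsf10b, which encodes the mouse receptor for the ligand TRAIL, had 7.72, 4.63, 5.28 and 4.92 CPM in HVCN1 null hearts 1 to 4, and 4.25, 3.52, 3.68 and 4.12 CPM in WT hearts 5 to 8. The groups did not overlap, which held for 7.06% of all tested genes in either direction, and heart 1 was the highest. Its log2 fold change was 0.53 (95% interval 0.14 to 0.93, edgeR quasi-likelihood adjusted p = 0.260). Casp8, the initiator caspase of this route, had a log2 fold change of -0.16 (edgeR quasi-likelihood adjusted p = 0.796).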
